A study of Homo sapiens with 14 samples.

Results

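The 4 human vault RNA genes are VTRNA1-1, VTRNA1-2, VTRNA1-3 and VTRNA2-1, all on chromosome 5. They were taken by name from the RefSeq gene table, in which they are the 4 genes typed as vault RNA among 58419 genes kept on chromosomes 1 to 22 and X. The study had mapped binding of the progesterone receptor (PR) and of POLR3A, a catalytic subunit of RNA polymerase III, by chromatin immunoprecipitation and sequencing (ChIP-seq). The cells were T47D, an established breast cancer line positive for both the oestrogen and the progesterone receptor, and they were given ethanol vehicle or progesterone (P4) for 1 h, at a dose the labels do not state. Of the 14 libraries, 3 belonged to each antibody under each treatment and 2 were pooled inputs, 1 per treatment. Each group of 3 libraries had 1 peak list, so every value below is that of a list. None of them has a replicate check, and no difference between lists could be set against the spread between replicates. All libraries come from 1 line, and the labels do not say whether the replicates were separate cultures.

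Vault RNAs are short noncoding RNAs of about the size of a tRNA, made by RNA polymerase III from promoter elements that lie inside the gene, called the A box and the B box, and helped by elements before the start. Some of the RNA sits in the vault, a large hollow ribonucleoprotein particle, but most of it is outside the particle. VTRNA1-1 binds the autophagy receptor p62, which SQSTM1 encodes. VTRNA2-1, also known as nc886, is not a regular part of the particle, binds the kinase PKR, lies in an imprinted locus and is silenced by promoter methylation in many tumours. Ligand-bound PR binds DNA at palindromes of a short element, and also reaches chromatin through other factors.

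VTRNA1-1 (RefSeq transcript NR_026703.1, 98 bp) lies at chr5:140711276-140711373, VTRNA1-2 (NR_026704.1, 88 bp) at chr5:140718926-140719013, and VTRNA1-3 (NR_026705.1, 88 bp) at chr5:140726159-140726246. Their starts are 7.65 kb and 7.23 kb apart. All coordinates are those of GRCh38. The gene table has no strand, and the VTRNA1 genes are known to be transcribed towards higher coordinates, so "start" means their lower end. The nearest protein-coding genes are ZMAT2, which ends 4.59 kb below VTRNA1-1, and PCDHA1, the first of a protocadherin cluster, which begins 59.9 kb above VTRNA1-3. A long noncoding RNA gene, LOC105378198, runs from the very base where VTRNA1-1 begins to position 140758080, so VTRNA1-2 and VTRNA1-3 lie within its span. VTRNA2-1 (NR_030583.3, 108 bp) lies 4.63 Mb away at chr5:136080491-136080598, with TGFBI ending 16.7 kb below it and SMAD5 beginning 52.2 kb above it.

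Because LOC105378198 shares its start with VTRNA1-1, the RefSeq promoter window of that gene (GRCh38.p14, chr5:140711026-140711325, plus strand) holds 250 bases before VTRNA1-1 and the first 50 bases of the vault RNA itself. It is shown because all regions described below for VTRNA1-1 cover part of it, with the vault RNA's bases in capitals.
VTRNA1-1 window: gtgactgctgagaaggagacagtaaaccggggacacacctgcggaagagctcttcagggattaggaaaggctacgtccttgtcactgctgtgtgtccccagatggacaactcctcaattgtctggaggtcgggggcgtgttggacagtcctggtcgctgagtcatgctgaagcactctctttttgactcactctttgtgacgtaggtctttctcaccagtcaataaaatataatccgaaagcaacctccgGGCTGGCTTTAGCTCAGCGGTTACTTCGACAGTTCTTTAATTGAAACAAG

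In the next 2 stretches of that window the capitals mark matches to the motifs searched, on either strand. Before the start (chr5:140711176-140711275) they mark 2 sites of the AP-1 form TGANTCA and 1 core of the cAMP response element, TGACGT. In the first 50 bases of the RNA (chr5:140711276-140711325) they mark the core of the A box, GCNNAGNGG.
Before the start: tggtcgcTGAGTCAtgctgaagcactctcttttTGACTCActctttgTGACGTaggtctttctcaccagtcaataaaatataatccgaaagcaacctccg
First 50 bases: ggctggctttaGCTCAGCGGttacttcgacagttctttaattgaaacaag

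The A box core began at base 12 of the RNA. The cAMP response element core began 53 bp before the start, and the AP-1 forms began 93 and 67 bp before it. Of the 35116 promoter windows of the same length in the table, 29.1% held a match to the A box core, 7.98% to TGACGT and 7.71% to TGANTCA. The AP-1 form was added to the search after the sequence had been read. No match was found in the window for the B box letters GTTCNANNC (7.48% of windows), for TATAAA (11.5%) or TTTAAA (12.2%), for the core of the progesterone response element palindrome, ACANNNTGT (5.37%), or for its single arm AGAACA (14.8%). The B box of vault RNA genes lies beyond the first 50 bases and so outside this window. A match describes letters only. The PR region at VTRNA1-1 under P4 reaches beyond this window at both ends. No promoter window was at hand for VTRNA1-2, VTRNA1-3 or VTRNA2-1, so their sequences were not searched.

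POLR3A was at all 3 VTRNA1 genes under both treatments and at VTRNA2-1 under neither. A gene counted as overlapped when a region reached its body or the 100 bp on either side by at least 1 bp. The count was 3 of 4 vault RNA genes in the vehicle list and 3 of 4 in the P4 list. Among 3659 other genes of 80 to 120 bp, mostly pseudogenes, microRNA and small nucleolar RNA genes, the same rule gave 3.99% under vehicle and 4.54% under P4. Among the 429 tRNA genes, which share the internal promoter, it gave 82.3% and 81.8%, so 3 of 4 is near the share for tRNA genes.

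The POLR3A regions at the VTRNA1 genes were among the strongest of their lists. Fold enrichment and the −log10 q-value (the significance of a region, higher meaning stronger) are the peak caller's values as the authors deposited them, and they rank regions within a list only. At VTRNA1-2 the POLR3A fold was 66.4 under vehicle, with −log10 q 546, and 81.7 under P4, with −log10 q 589. These were ranks 51 of 29161 and 2 of 47904. At VTRNA1-3 the fold was 82.4 under vehicle, with −log10 q 500 and rank 86, and 64.2 under P4, with −log10 q 478 and rank 91. At VTRNA1-1 the fold was 53.7 under vehicle, with −log10 q 323 and rank 166, and 52.2 under P4, with −log10 q 334 and rank 155. By −log10 q the order was VTRNA1-2, VTRNA1-3, VTRNA1-1 in both lists. By fold under vehicle, VTRNA1-3 came before VTRNA1-2, so the order of these neighbours depends on the score, and no spread between replicates is at hand to tell them apart. Over all POLR3A regions the median fold was 3.50 under vehicle and 3.28 under P4. High ranks were usual at tRNA genes with POLR3A, whose median percentile by −log10 q was 99.47 under vehicle and 99.69 under P4. VTRNA1-1 lay just below these, at 99.43 and 99.68.

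The P4 scores were also read beside those of POLR3A regions with a like vehicle score. For VTRNA1-3, 41 of the 61 vehicle POLR3A regions within 10% of its −log10 q had a higher value under P4 than its own 478 (67.2%). For VTRNA1-1 it was 5 of 23 (21.7%) and for VTRNA1-2 it was 1 of 85 (1.18%). The 85 regions of like vehicle score to that of VTRNA1-2 had a median of 528 under P4 (quartiles 501 and 548). The 10% limit was set after the values had been seen, and these shares describe the lists, without a test.

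**Figure D1:**
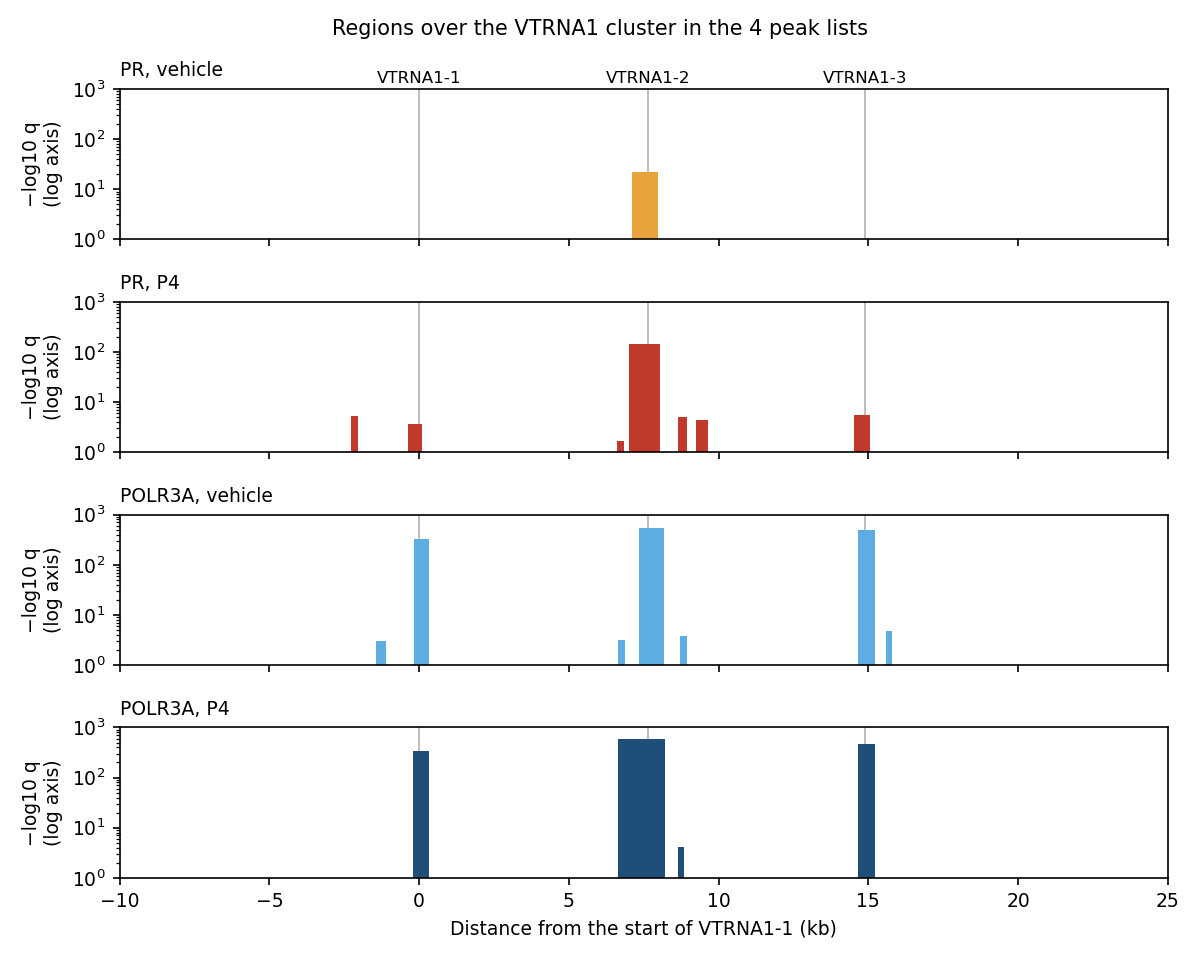
Regions of the 4 peak lists over the VTRNA1 cluster. The x axis is the distance from the start of VTRNA1-1 in kb and the y axis the deposited −log10 q of each region, on a log axis from 1. Bars span the regions and grey lines mark the 3 gene starts. POLR3A bars stand at all 3 genes under both treatments, at −log10 q from 323 to 589, while PR stands at VTRNA1-2 alone under vehicle and at all 3 genes under P4, highest at VTRNA1-2 (143).

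The POLR3A summit, the base of highest signal in a region, lay inside the gene in all 6 cases. In VTRNA1-1 (98 bp) it was at base 52 under vehicle and base 36 under P4. In VTRNA1-2 (88 bp) it was at base 48 and base 44, and in VTRNA1-3 (88 bp) at base 57 and base 61. Summits of a gene thus moved by 16 bp, 4 bp and 4 bp between the lists. From the gene's midpoint the summits were 0.5 to 16.5 bp away, and at tRNA genes with a POLR3A region the median distance was 19 bp under vehicle and 18.5 bp under P4. Both VTRNA1-1 summits lay after the A box core.

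The region at VTRNA1-1 was 513 bp wide under each treatment, and that at VTRNA1-3 was 543 bp wide under vehicle and 554 bp under P4. The region at VTRNA1-2 differed in extent between the lists, at 822 bp and 1580 bp. Its lower edge lay 296 bp before the gene under vehicle and 1011 bp before it under P4, where it took in a place that the vehicle list holds as a separate region (chr5:140717916-140718161, −log10 q 3.18). Its summit, in contrast, differed by 4 bp. The VTRNA1 genes resemble each other in sequence, and how reads that fit several of them were assigned is not given in the sources used here. The POLR3A regions reached 185 to 1011 bp below and 216 to 481 bp above the genes.

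PR was at 1 of the 4 vault RNA genes under vehicle and at 3 of 4 under P4. Of the other genes of 80 to 120 bp, 1.72% had PR under vehicle and 4.78% under P4. Of the tRNA genes, 12.8% had PR under vehicle and 26.1% under P4. The gene with PR under both treatments was VTRNA1-2. VTRNA1-1 and VTRNA1-3 had a PR region in the P4 list alone, and VTRNA2-1 had none. Every vault RNA gene with PR also had POLR3A. Both factors were thus at 1 of 4 genes under vehicle and at 3 of 4 under P4. Of the other short genes, 0.929% and 2.19% had both. Of the 429 tRNA genes, 55 had both under vehicle and 111 under P4. Of 16 other listed RNA polymerase III genes, compared below, 6 and 9 had both.

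At VTRNA1-2 the PR region (chr5:140718370-140719253) had a fold of 6.96 and −log10 q 22.3 under vehicle, at percentile 83.2 of its list. Under P4 the region (chr5:140718283-140719320) had a fold of 26.5 and −log10 q 143, at percentile 97.3 of its list. Over all PR regions the median fold was 3.78 under vehicle and 3.55 under P4. Of the 1051 other vehicle PR regions with −log10 q within 10% of that at VTRNA1-2, 98.3% overlapped a P4 region. The median −log10 q of those partners was 63.8 (quartiles 39.9 and 91.0), and 51 of 1033, or 4.94%, exceeded 143. These values place VTRNA1-2 high among regions of like vehicle score, which is a description of the lists.

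The PR regions at VTRNA1-1 and VTRNA1-3 were weak. At VTRNA1-1 (chr5:140710902-140711382) the fold under P4 was 3.43 and −log10 q 3.71, at percentile 35.8. At VTRNA1-3 (chr5:140725786-140726316) the fold was 3.99 and −log10 q 5.52, at percentile 55.2. They lay on either side of the median of the list, 4.87. Absence from the vehicle list was usual for P4 regions of such scores. Of the 14384 P4 regions within 10% of the −log10 q at VTRNA1-1, 8.03% overlapped a vehicle region, and of the 9874 with a score like that at VTRNA1-3 it was 14.5%.

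The PR count under P4 depended on the length and threshold of the list. With both PR lists held to the 38933 regions of the shorter one by −log10 q, the P4 list kept regions down to 7.39, and VTRNA1-2 alone remained under each treatment. A threshold of 10 on −log10 q also gave 1 and 1. When the summit had to lie within 100 bp of the gene body, VTRNA1-2 was lost from both PR lists, which left 0 genes under vehicle and the 2 weaker ones under P4. The depth of the libraries is unknown, since the files hold no read counts, and its part in the difference between the lists was not tested.

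PR and POLR3A summits differed in place by gene. At VTRNA1-2 the PR summit lay before the gene, 184 bp before the start under vehicle and 171 bp under P4, and 231 bp and 214 bp below the POLR3A summit of the same treatment. At VTRNA1-3 under P4 the PR summit lay 36 bp before the start and 96 bp below the POLR3A summit. At VTRNA1-1 under P4 it lay at base 21 of the gene, in the printed stretch right after the A box core, and 15 bp below the POLR3A summit. The PR and POLR3A regions overlapped each other in all 4 of these cases, by 624 bp and 1038 bp at VTRNA1-2, 306 bp at VTRNA1-1 and 374 bp at VTRNA1-3. Under vehicle the distance between the 2 summits had a median of 190 bp over 55 tRNA genes with both factors (quartiles 80 and 532.5 bp). Under P4 it was 249 bp over 111 (quartiles 107 and 567 bp). The strongest region at each gene was used, and neighbouring tRNA genes can share a region whose summit lies far from some of them. The 214 bp and 231 bp at VTRNA1-2 fell within these tRNA quartiles, and the 15 bp and 96 bp at the other genes lay below the P4 ones. For the 6 listed RNA polymerase III genes with both factors under vehicle the quartiles were 158.5 and 202 bp. For the 9 under P4 they were 88 and 328 bp. Beside these, the 231 bp lay above, the 214 bp and 96 bp within, and the 15 bp below.

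**Figure D2:**
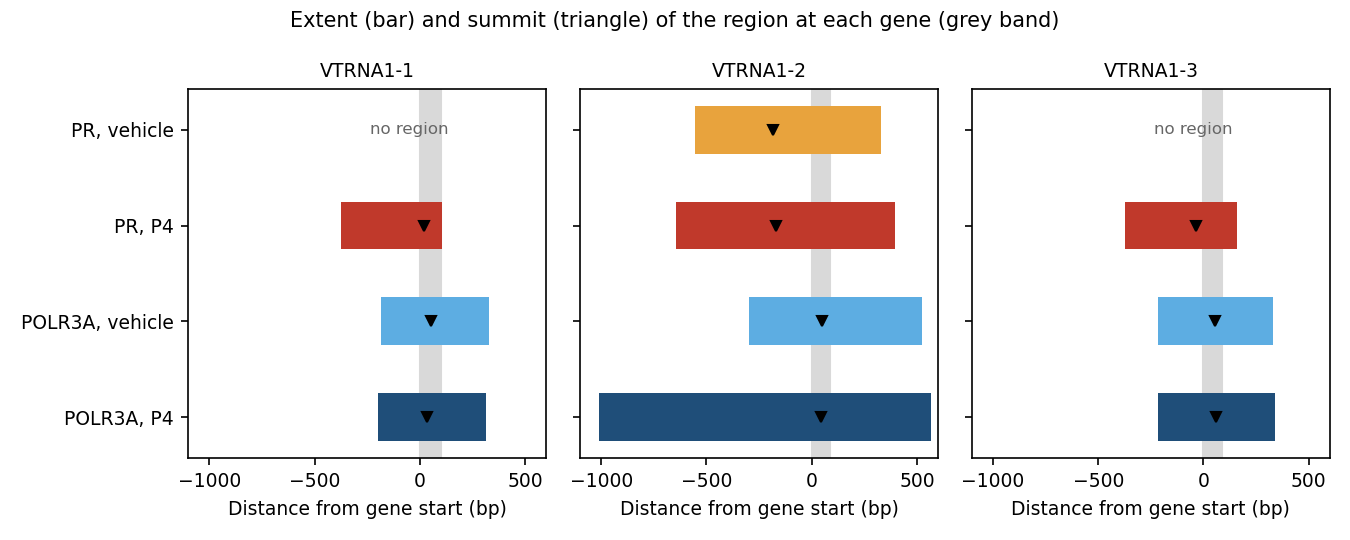
Extent and summit of the region at each VTRNA1 gene in each list. The x axis is the distance from the gene start in bp, bars are regions, triangles are summits and the grey band is the gene. POLR3A summits fall in the gene in all 3 panels, and PR summits fall 184 and 171 bp before VTRNA1-2, 36 bp before VTRNA1-3 and inside VTRNA1-1.

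Set beside other genes of RNA polymerase III, VTRNA1-2 ranked high for both factors by −log10 q, and for POLR3A under vehicle less so by fold. Of 16 other listed genes, all with POLR3A under both treatments, 1 had a higher POLR3A −log10 q under vehicle and 0 under P4. Among tRNA genes 71 of 353 and 1 of 351 were higher. By fold, 6 of the 16 listed genes and 115 of the 353 tRNA genes were higher under vehicle, and 1 and 6 under P4. The listed genes nearest to it were RNU6ATAC (537) and RMRP (531) under vehicle, and RN7SK (586) and RNU6-2 (550) under P4. RNU6ATAC and RNU6-2 encode spliceosomal RNAs, RMRP the RNA of RNase MRP and RN7SK the 7SK RNA that restrains elongation by RNA polymerase II. VTRNA1-3 was exceeded by 5 and 7 of the 16 listed genes, and VTRNA1-1 by 10 and 11. VTRNA1-1 stood next to the Y RNA genes RNY5 (317 and 363) and RNY1 (262 and 312). For POLR3A at tRNA genes the median −log10 q was 354 in each list.

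For PR, 9 of the 16 listed genes had a region under P4, none of them with a higher −log10 q than VTRNA1-2. The nearest were RN7SL2 (88.7), which encodes the RNA of the signal recognition particle, and RNY3 (24.6). Of 112 tRNA genes with PR under P4, 7 were higher. Under vehicle, RN7SL2 (31.4) was the only listed gene above VTRNA1-2, and 7 of 55 tRNA genes were. Neighbouring tRNA genes can share a region, also among these 7 in each list. The tRNA counts for PR and POLR3A are therefore of genes, not of separate regions. VTRNA1-3 and VTRNA1-1 under P4 were exceeded by 6 and 8 of the 9 listed genes and by 63 and 90 of the 112 tRNA genes. The medians under P4 were 9.17 for the listed genes with PR and 6.20 for the tRNA genes with PR.

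The combination seen at VTRNA1-2, both factors under both treatments, was found at 6 of the 16 listed genes (RN7SK, RNY3, RN7SL1, RN7SL2, RNU6-8 and RNU6ATAC) and at 47 of 429 tRNA genes. That at VTRNA1-1 and VTRNA1-3, POLR3A under both treatments and PR under P4 alone, was found at RMRP, RNY1 and RNU6-2 and at 64 tRNA genes. POLR3A under both treatments without PR, which no vault RNA gene showed, was found at 7 listed genes and 220 tRNA genes. No region in any list, as at VTRNA2-1, was found at 0 listed genes and 63 tRNA genes.

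**Figure D3:**
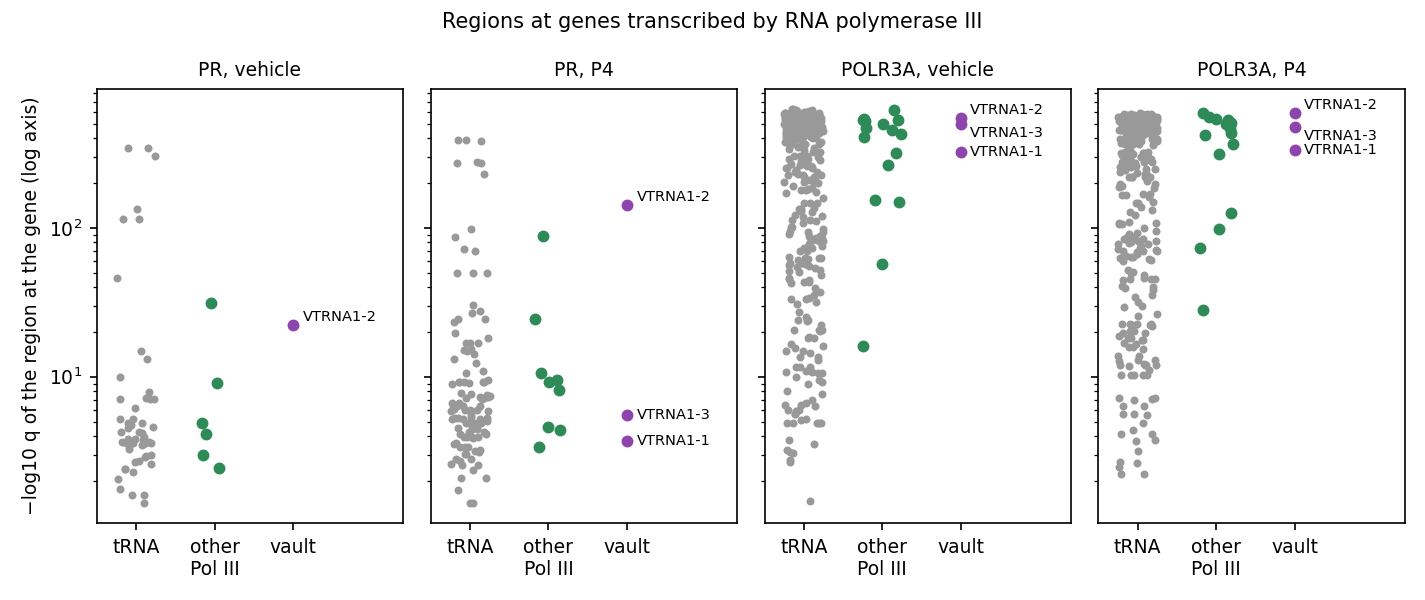
The deposited −log10 q (log axis) of the strongest region at each tRNA gene, each of 16 other listed RNA polymerase III genes and each vault RNA gene, with 1 panel per list. Points are genes with a region, spread sideways at random for the first 2 groups. VTRNA1-2 is at 143 in the PR P4 panel, above every listed gene, and VTRNA1-3 and VTRNA1-1 are at 5.52 and 3.71 there.

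Further regions lay near the VTRNA1 genes but not at them. Within 10 kb of a vault RNA gene the PR vehicle list had 0 such regions, the PR P4 list 4, the POLR3A vehicle list 4 and the POLR3A P4 list 1. All were weak, with −log10 q from 1.69 to 5.39. A site 1.1 kb after the start of VTRNA1-2 recurred in 3 lists. Its summit was 1132 bp after the start for POLR3A under vehicle (−log10 q 3.87), 1084 bp for POLR3A under P4 (4.20) and 1069 bp for PR under P4 (5.10). A site before VTRNA1-2 had summits 852 bp before the start for POLR3A under vehicle (3.18) and 830 bp before it for PR under P4 (1.69), and under P4 it lay inside the wide POLR3A region. PR under P4 had 2 more regions that met none of the other lists, 2168 bp before VTRNA1-1 (5.39) and 1663 bp after the start of VTRNA1-2 (4.48). POLR3A under vehicle had 2 that met none, 1400 bp before VTRNA1-1 (3.04) and 836 bp after the start of VTRNA1-3 (4.74).

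VTRNA2-1 had no region of any list within 50 kb. The nearest PR regions were 129 kb away under vehicle (−log10 q 7.92) and 52.7 kb away under P4 (5.93). The nearest POLR3A region was 681 kb away under vehicle (4.89) and 52.7 kb away under P4 (4.31). The P4 regions of both factors lay just inside the lower end of SMAD5, a transducer of bone morphogenetic protein signals, at chr5:136133310-136134016 for PR and chr5:136133320-136133852 for POLR3A. VTRNA2-1 sat in a stretch of 1.65 Mb without a POLR3A region in the vehicle list, and of 0.572 Mb in the P4 list. For PR the stretches were 0.637 Mb under vehicle and 0.126 Mb under P4. Of the 3659 other short genes, 8.39% were as far from a POLR3A region under vehicle and 46.0% under P4. The shares for PR were 24.9% under vehicle and 23.6% under P4, and 20.9% of these genes had no region of any list within 50 kb. The regions of each list are numbered from 1 without a break, so no row was dropped after the numbering. Any filtering before it cannot be seen from the lists. Methylation or RNA of VTRNA2-1 was not analysed here, and an absent region says only that none passed the authors' threshold.

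**Figure D4:**
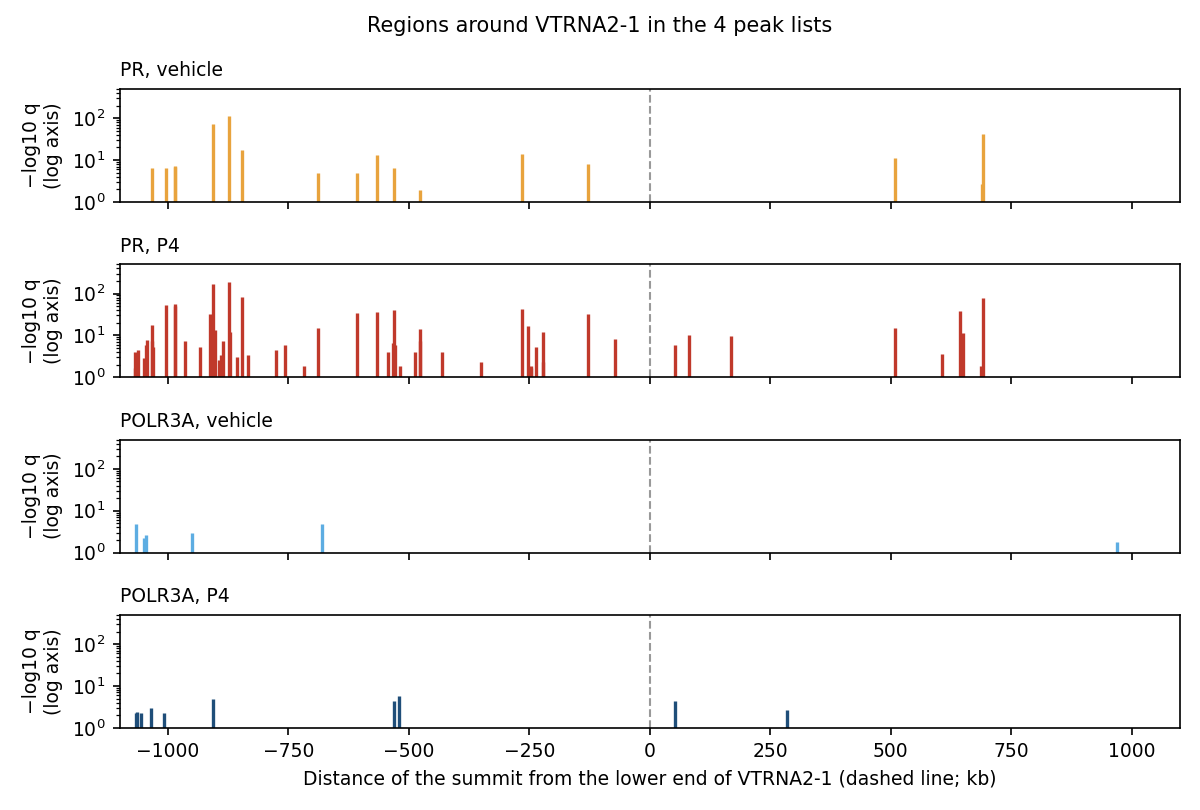
Summits of regions within 1.1 Mb of VTRNA2-1. The x axis is the distance from the gene's lower end in kb, the dashed line is the gene, and line height is the deposited −log10 q on a log axis. The window holds 17 PR regions under vehicle, 62 PR regions under P4, 6 POLR3A regions under vehicle and 10 POLR3A regions under P4, none of them within 50 kb of the gene.

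The vault RNA pseudogenes were checked by the same rule. VTRNA2-2P (chr2:65555432-65555534) and VTRNA3-1P (chrX:53462210-53462310) had no region in any of the 4 lists. The nearest POLR3A regions were 124 kb and 84.0 kb from VTRNA2-2P under vehicle and P4, and 224 kb and 27.1 kb from VTRNA3-1P. PR regions lay nearer, at 21.2 kb and 3.8 kb from VTRNA2-2P and at 27.4 kb and 15.4 kb from VTRNA3-1P. The PR region at 3.8 kb was weak (−log10 q 2.30).

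Genes of proteins that form the vault or handle vault RNAs were read over the whole gene with 100 bp on either side. Of 9 such genes, PR was at 3 under vehicle and 7 under P4, and POLR3A was at 4 under each treatment. For all 19821 protein-coding genes the shares were 39.9% and 66.6% for PR and 39.9% and 44.5% for POLR3A. The 3 particle proteins had no POLR3A region and no PR region under vehicle. Under P4, PR had 1 region in MVP, the major vault protein, with −log10 q 2.81, and 2 in PARP4, the vault poly(ADP-ribose) polymerase, the stronger at 5.93. TEP1, the telomerase-associated vault protein, and SSB, the La protein that binds the ends of RNA polymerase III transcripts, had none. Values for the next genes are those of the strongest region. SQSTM1 had the strongest PR region of the 9 genes under P4, with −log10 q 264, set beside 49.6 under vehicle. It had 7 PR regions under P4. Its POLR3A regions were 2 under vehicle (8.44) and 7 under P4 (5.53). No PR region met the promoter window of SQSTM1 or DICER1 in either list. NSUN2, the methyltransferase that modifies vault RNA, had PR values of 65.0 and 117 and POLR3A values of 5.91 and 2.91. DICER1, which can process vault RNA, had PR values of 12.7 and 94.1 and a POLR3A region over its promoter window under both treatments (10.9 and 10.3). SRSF2, a splicing factor that binds VTRNA1-1, had PR under P4 alone (3.25) and POLR3A values of 13.2 and 6.14. EIF2AK2, which encodes PKR, had 4 PR regions under P4 alone, the strongest at 8.92. Its promoter window met 1 POLR3A region under P4 and 0 under vehicle, beyond the 100 bp counted beside the gene.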

How the data were processed

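ChIP-seq of PR and POLR3A in T47D cells gave 4 deposited peak lists, 1 for the 3 libraries of each group. The submitters' processing notes name cutadapt, Bowtie2, MACS2 and the build hg38. Versions, settings, the control used and how replicates were joined are not given in the sources used here. Per region the authors deposited a fold enrichment (a ratio), −log10 p-values and q-values, a score (10 times −log10 q) and positions. Scores of the vehicle and P4 lists were set side by side, also for regions of like score, but not taken as measures of change. Depth is unknown.

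Regions on chromosomes 1 to 22 and X were kept (38933, 111515, 29161 and 47904 for PR vehicle, PR P4, POLR3A vehicle and POLR3A P4). A percentile is the share of a list at or below a region's −log10 q. Genes came from RefSeq (GRCh38.p14). Genes of alternate sequences were left out, which kept 58419. The RefSeq promoter window of LOC105378198 was used for VTRNA1-1. Motifs were searched on both strands. Overlap counts were checked with bedtools 2.31.1, which gave the same number in 8 of 8 comparisons, and the code was tested on simulated data.

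The text names the vault RNA genes, their neighbours and pseudogenes, and genes of fixed lists, with at most the nearest 2 in rank. The members and lists were chosen with earlier results of these data known. No test over samples was possible, because the lists hold no value per replicate. Alternatives were other windows, thresholds, overlaps, list lengths and ranking by fold or p. Python 3.11.15 and pandas 2.3.3 were used.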

Additional observations from a re-analysis of the deposited data

How the results depend on the processing

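The POLR3A counts of 3 of 4 genes were the same under all 16 alternatives. When the summit, not the region, had to lie within 100 bp of the gene body, VTRNA1-2 was lost from both PR lists, because its PR summits are farther off: the vehicle count of 1 became 0 and the P4 count of 3 became 2 (VTRNA1-1 and VTRNA1-3). The PR P4 count also became 2 at −log10 q of at least 5 (VTRNA1-1 lost), 1 at −log10 q of at least 10 and 1 with lists of equal length. The count of genes with both factors under P4 became 2 at −log10 q of at least 5 and 1 with lists of equal length. The regions near but not at a vault RNA gene within 10 kb became 1, 7 and 4 within 20 kb for PR vehicle, PR P4 and POLR3A P4. At −log10 q of at least 5 they became 2, 0 and 0 for PR P4, POLR3A vehicle and POLR3A P4. Ranked by fold, VTRNA1-2 lay at percentile 82.1 (PR vehicle), 97.8 (PR P4) and 99.7 (POLR3A vehicle). VTRNA1-1 lay at 47 (PR P4), 99.5 (POLR3A vehicle) and 99.7 (POLR3A P4), and VTRNA1-3 at 62.6 (PR P4) and 99.9 (POLR3A vehicle). The cause was not tested. Leaving out a replicate could not be done. No paired analysis was possible because the replicates of a group share 1 list.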

Other observations

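Weak POLR3A regions flanked the VTRNA1 genes in the vehicle list. Within 2 kb of a gene, a distance set after the values had been seen, and leaving out regions at any listed RNA polymerase III gene, 3 of 3 VTRNA1 genes had such a region, in 4 regions. So did 5 of the 16 other listed genes and 60 of the 339 tRNA genes with POLR3A under both treatments, 17.7%. In the POLR3A P4 list it was 1 of 3 VTRNA1 genes, 3 of 16 listed genes and 95 of 339 tRNA genes, 28.0%. For PR the flanking counts were 0 of 3, 3 of 16 and 87 of 339 under vehicle and 1 of 3, 11 of 16 and 139 of 339 under P4. With 3 genes these counts carry no test, and all the flanking POLR3A regions were under −log10 q of 5.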
